A study of Mus musculus with 20 samples.

Results

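Alternative activation is the macrophage program that the cytokines IL-4 and IL-13 drive, and 10 genes that belong to it were followed here through an RNA-seq study of zymosan-stimulated bone marrow-derived macrophages (BMDMs). The 10 genes, Mrc1, Retnla, Clec10a, Mgl2, Il4ra, Stat6, Klf4, Pparg, Cd36 and Tgm2, were looked up by symbol in the 21963 rows of the count table. The look-up used no measured value, but the list was chosen with earlier results of these data known. 9 of the 10 were among the 11707 genes with enough reads to test, and Retnla was not.

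The study asked how calcium uptake by mitochondria shapes inflammatory output, and no library comes from cells labelled as given IL-4 or IL-13. In a separate PCR assay with IL-4, the paper reports raised markers of alternative activation in Mcu-/- macrophages. Wild-type (WT) BMDMs were left untreated (n = 4), given zymosan for 3 h (n = 5), or given zymosan for 3 h with BAPTA-AM (n = 4). BAPTA-AM is a cell-permeant calcium chelator. The methods name C57BL/6 mice but do not tie them to the sequenced WT cells. BMDMs labelled Mcu-/- came from Mcu fl (Cx3cr1-cre) mice, which lack the pore subunit of the mitochondrial calcium uniporter, and were left untreated (n = 4) or given zymosan for 3 h (n = 3). Zymosan is a particle of yeast cell wall that macrophages bind and engulf, and the study's methods give 2 particles per cell and 10 uM BAPTA-AM for its PCR assays and no other dose for the sequenced cells.

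The mice were 15 to 25 weeks old and of both sexes, and all cells were grown in medium with 20% L929-conditioned medium, which supplies macrophage growth factor. The deletion is driven by a myeloid Cre and not by a whole-body knockout, the methods name purchased C57BL/6 mice and do not say whether WT littermates were used, and the number of animals behind each library is not given in the sources used here. The p-values therefore measure the spread between these libraries, labelled biological replicates, whatever their source.

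IL-4 and IL-13 bind receptors that share the IL-4 receptor alpha chain, encoded by Il4ra, and receptor-bound Janus kinases then phosphorylate the transcription factor STAT6. STAT6 works with KLF4 and with the lipid-sensing nuclear receptor PPARgamma, encoded by Pparg, to switch on genes that mark alternatively activated macrophages. Among these are the mannose receptor Mrc1 (CD206), the galactose-type lectins Clec10a and Mgl2, the secreted resistin-like protein Retnla, the fatty acid and oxidized-lipoprotein receptor Cd36 and the protein-crosslinking enzyme Tgm2.

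On the mouse genome GRCm38, the receptor gene Il4ra (ENSMUSG00000030748) lies at chr7:125552120-125579474 and Stat6 (ENSMUSG00000002147) at chr10:127642986-127660957. The regulators Klf4 (ENSMUSG00000003032) and Pparg (ENSMUSG00000000440) lie at chr4:55527143-55532466 and chr6:115360951-115490399. Of the lectins, Mrc1 (ENSMUSG00000026712) lies at chr2:14229392-14332057, and Clec10a (ENSMUSG00000000318) at chr11:70156197-70170834 is a neighbor of its close paralog Mgl2 (ENSMUSG00000040950) at chr11:70130329-70137550. Reads that fit both paralogs could have been split between them or dropped, so the counts of Clec10a and Mgl2 are less certain than the rest. Retnla (ENSMUSG00000061100) lies at chr16:48842551-48844461, Cd36 (ENSMUSG00000002944) at chr5:17781690-17888801 and Tgm2 (ENSMUSG00000037820) at chr2:158116402-158146436. The table gives 1 count per gene and no value for its promoter or single exons.

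Promoter sequences show what these genes carry in front of their start sites, and 8 of the 10 genes matched the RefSeq promoter table of GRCm38.p6. Clec10a and Tgm2 did not match. The 250 bases before each start were searched on both strands for a STAT6-type motif TTCNNNNGAA, a STAT-type motif TTCNNNGAA, a KLF-type motif CACCC, a PU.1-type motif GAGGAAG and an AP-1-type motif TGACTCA. 3 promoters are printed 5′ to 3′ on the plus strand up to the first annotated base of the gene, with motif matches in capitals. The first annotated base is that of GENCODE, which for Retnla, Mrc1 and Il4ra lies upstream of the RefSeq start from which the search window and distances are counted. They are Retnla, the member with no reads, Stat6, the factor itself, and Mrc1, the member most used as a surface marker.
Retnla, chr16:48842359-48842550: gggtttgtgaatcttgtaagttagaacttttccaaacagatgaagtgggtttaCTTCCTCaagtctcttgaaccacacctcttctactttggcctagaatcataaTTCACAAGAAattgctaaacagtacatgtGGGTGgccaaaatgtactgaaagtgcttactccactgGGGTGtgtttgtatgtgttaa
Stat6, chr10:127642736-127642985: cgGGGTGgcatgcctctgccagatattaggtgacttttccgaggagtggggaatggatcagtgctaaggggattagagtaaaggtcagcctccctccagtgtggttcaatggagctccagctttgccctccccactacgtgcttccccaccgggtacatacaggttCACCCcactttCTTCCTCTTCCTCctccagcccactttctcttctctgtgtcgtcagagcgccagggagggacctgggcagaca
Mrc1, chr2:14229164-14229391: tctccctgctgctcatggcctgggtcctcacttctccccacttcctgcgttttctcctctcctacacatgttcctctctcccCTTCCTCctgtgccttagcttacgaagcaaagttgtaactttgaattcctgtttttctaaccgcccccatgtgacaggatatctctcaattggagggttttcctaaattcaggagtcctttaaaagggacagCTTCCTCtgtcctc
Retnla held the only STAT6-type match among the 8 genes, TTCACAAGAA, 145 bases before the RefSeq start, and 5.85% of all 32851 promoters in the table hold one. Mrc1 held 2 PU.1-type matches, Stat6 held 2 that overlap each other and Retnla held 1, a motif in 10.6% of promoters. The searched window of Il4ra held 4 KLF-type matches, all inside the gene as GENCODE annotates it. Pparg held 4 in 1 window and 1 in another, Stat6 held 2 and Retnla 2. At least 1 such match occurs in 52% of promoters. A match is a description of these letters and not a binding site.

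The libraries held between 14.4 M and 23.95 M counted reads, and values below are read counts normalized to a mean library of 20.6 M reads unless a log2 difference is named. Macrophage markers gave the highest sums in each library, while the dendritic cell, neutrophil, mast cell, lymphocyte and monocyte lists summed to at most 19.7 CPM, counts scaled to 1 common library size, each. The 8 macrophage markers summed to 16080 to 16393 CPM in zymosan-treated WT libraries and 10408 to 10767 CPM in zymosan-treated Mcu-/- libraries. Single markers went both ways, with 4 of the 8 higher and 3 lower in the Mcu-/- cells, against 31.8% and 30.3% of all tested genes. The mean normalized count of Lyz2 was 168708 in WT and 66844 in Mcu-/- cells, and that of Cd68 was 6364 and 23882. Over the same libraries the neutrophil list summed to 3.61 to 5.58 and 0.452 to 0.589 CPM, and the eosinophil list to 16.5 to 17.7 and 61.8 to 71.2 CPM, the latter with Ccr3 higher, Siglecf lower and the granule gene Epx at 0 in all 20 libraries. The 6 stromal markers summed to 36.7 to 57.5 CPM over all groups, and 3 of the 4 tested were higher and 1 lower in zymosan-treated Mcu-/- cells. The part of these cell types in the results was not tested, and in bulk samples fewer cells of a type and less RNA per cell cannot be told apart. Mcu itself was lower in all 7 Mcu-/- libraries (54.2 to 83.4) than in all 13 WT libraries (126 to 197) but was not lost, and the gene-level count does not show which exon was removed. Replicate 4 of the untreated Mcu-/- group stands apart from its group. Its macrophage markers summed to 8556 CPM, where the median of its group was 14532 CPM. Single markers of it went both ways, with a normalized count of 58202 for Lyz2 (group median 164475) and 20014.5 for Cd68 (group median 5312). Leaving replicate 4 out lowered the common variation between replicates from 12.4% to 3.56%. Results are therefore given with and without it.

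Ranked by CPM per kilobase of annotated exon in untreated WT cells, Cd36 stood first at 280.3 ± 2.7 (SD, n = 4) and Tgm2 second at 100.8 ± 4.4. Il4ra (55.1 ± 2.0), Mrc1 (52.4 ± 1.5) and Stat6 (44.8 ± 1.9) followed, and the means of Il4ra and Mrc1 differed by less than the sum of their SDs. Pparg (4.44 ± 0.14), Klf4 (2.43 ± 0.36) and Clec10a (1.91 ± 0.11) were far lower, and Mgl2 was barely detected at 0.218 ± 0.052. Retnla had 0 reads in all 20 libraries, which allows a level of up to 3 reads per library, or 0.125 to 0.208 CPM at these depths. In zymosan-treated Mcu-/- cells the order of the last 3 of these 5 genes was turned around. Il4ra stood at 29.8 ± 0.40 (n = 3), below Stat6 (49.2 ± 1.1) and Mrc1 (43.8 ± 0.64), while Cd36 reached 658.4 ± 5.2.

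**Figure D1:**
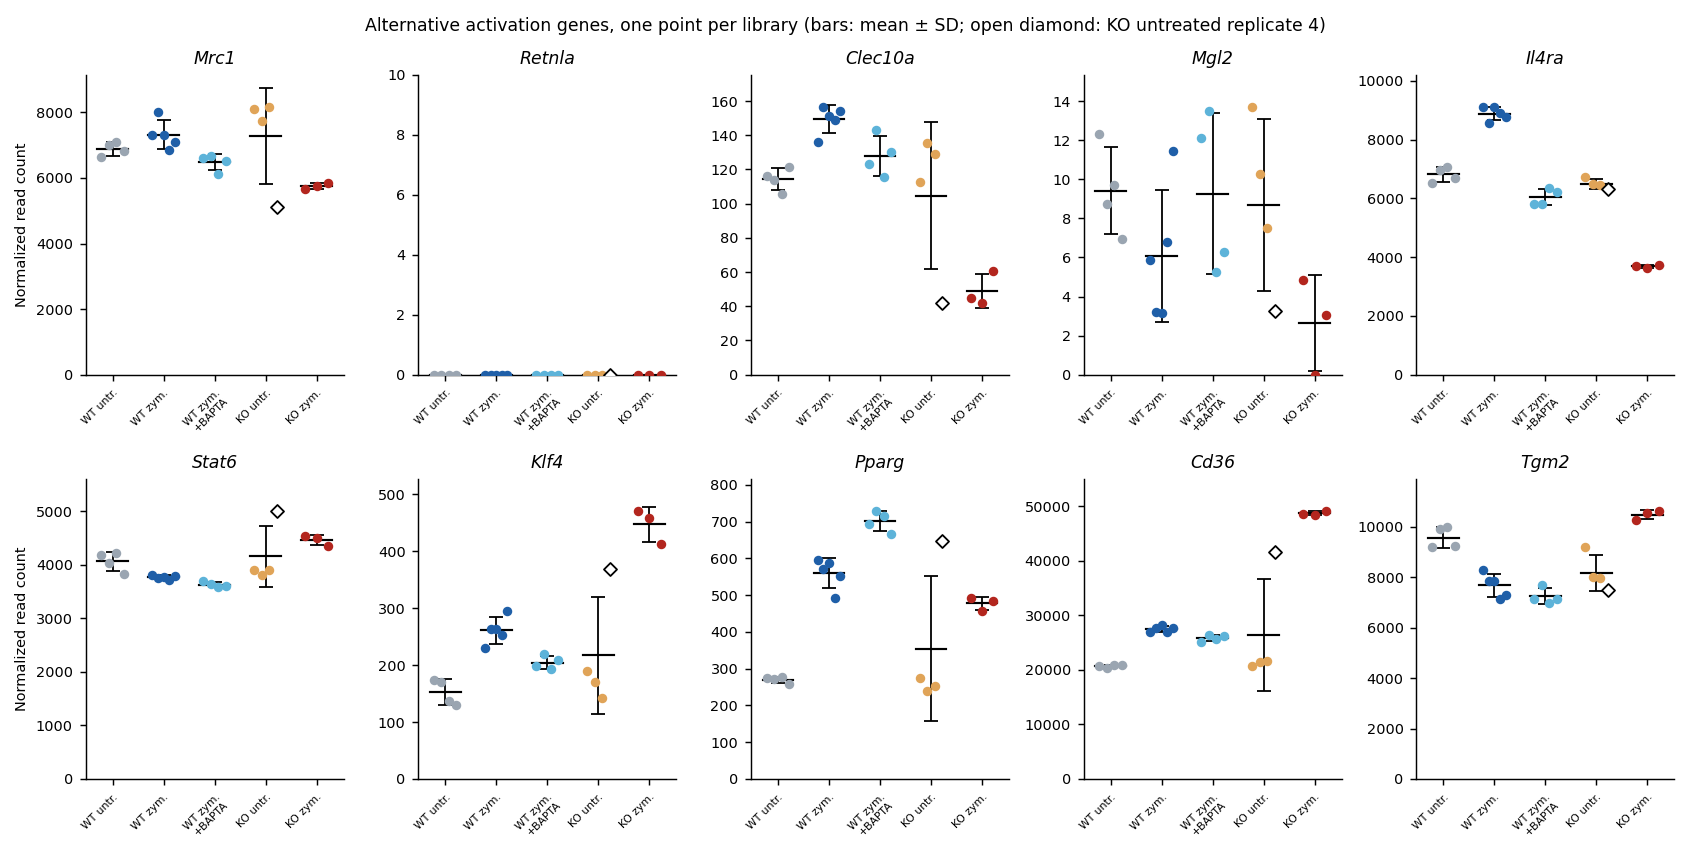
Normalized read counts of the 10 genes by library in the 5 groups, with a linear axis from 0, 1 point per library, and bars for the mean and SD. Il4ra is highest in the 5 zymosan-treated WT libraries and lowest in the 3 zymosan-treated Mcu-/- libraries, Cd36 is highest in the latter, Retnla is 0 throughout, and the open diamond marks replicate 4 of the untreated Mcu-/- group, which lies nearer to the zymosan-treated Mcu-/- mean than to the mean of replicates 1 to 3 for 7 of the 9 detected genes on the log2 scale.

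What zymosan does to these genes in WT cells was asked first. In WT cells zymosan raised Pparg, Klf4, Cd36 and Il4ra and lowered Tgm2. Pparg went from 274, 273, 276 and 258 in the untreated libraries to 595, 570, 589, 493 and 552 with zymosan, with no overlap. Its log2 fold change was 1.05 ± 0.21 (SE; edgeR FDR-adjusted p = 0.000197). Klf4, an early-response factor in many cell types, went from 174, 170, 137 and 130 to 230, 264, 264, 253 and 296, a log2 fold change of 0.77 ± 0.20 (edgeR FDR-adjusted p = 0.00207).

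Cd36 moved from 20802, 20445, 20891 and 20844 to 27004, 27762, 28294, 26979 and 27663. The groups did not overlap, and the log2 fold change was 0.41 ± 0.14 (edgeR FDR-adjusted p = 0.0164). Il4ra moved from 6522, 6979, 7069 and 6694 to 9103, 8560, 9121, 8902 and 8759, again with no overlap. Its log2 fold change was 0.38 ± 0.04 (edgeR FDR-adjusted p = 4.3e-08). The direction of these rises of Cd36 and Il4ra rests on the scaling between libraries. Relative to total counts alone, both genes were lower in every zymosan-treated WT library than in every untreated one. Tgm2 fell from 9199, 9898, 9977 and 9231 to 8277, 7848, 7853, 7123 and 7294, a log2 fold change of -0.32 ± 0.06 (edgeR FDR-adjusted p = 6.06e-05).

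The remaining 4 tested genes did not pass in this fit. Clec10a was at 116, 114, 106 and 121 in untreated and 136, 157, 151, 149 and 154 in zymosan-treated WT libraries, without overlap, and its log2 fold change was 0.39 ± 0.21 (edgeR FDR-adjusted p = 0.111). Stat6 was at 4176, 4029, 4218 and 3833 before and 3816, 3745, 3775, 3723 and 3789 after zymosan, so every treated library lay below every untreated one, by a log2 fold change of -0.11 ± 0.06. Mrc1 ranged over 6633 to 7090 before and 6858 to 8028 after, and Mgl2 rested on 3 to 14 reads per library. Without replicate 4 of the untreated Mcu-/- group, which enters this comparison through the shared spread alone, Clec10a and Mrc1 also passed as higher (edgeR FDR-adjusted p = 0.000491 and 0.0166) and Stat6 as lower (adjusted p = 0.000772).

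In counts, 4 of the 9 tested genes were higher and 1 lower, where 32.4% of all tested genes were higher and 36.8% lower, so the share called was no greater than among all genes. Without replicate 4 the counts were 6 higher and 2 lower against 37.2% and 41.3%. The median log2 fold change was 0.38 over the 9 genes and -0.04 over all tested genes. An exact two-sided permutation test of each gene gave its smallest possible p of 0.00794 for 7 of the 9, in a family of 45 such tests over 5 comparisons.

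Most of the IL-4 and IL-13 receptor pathway was higher after zymosan in WT cells. Of its 15 tested genes, Il4ra and Stat6 included, 11 were higher and 1 lower with zymosan, with a median log2 fold change of 0.55. Over all tested genes 32.4% were higher and 36.8% lower. Without replicate 4 of the untreated Mcu-/- group the pathway counts were 11 and 2, against 37.2% and 41.3%. The feedback inhibitors of cytokine signaling changed most. Socs1 rose from a mean of 31.7 to 5479 (log2 fold change 7.43 ± 0.09), Socs3 from 202 to 20368 (6.66 ± 0.10) and Cish from 6.00 to 273 (5.42 ± 0.23). The kinase Jak2 rose from 1441 to 7741 (log2 fold change 2.42 ± 0.04), and the receptor chains Il13ra1 and Il2rg rose by log2 fold changes of 1.18 ± 0.13 and 1.06 ± 0.05. The adaptor Irs2, the phosphatase Ptpn1 and the kinases Jak1 and Jak3 were also higher, at 1.07 ± 0.28, 0.55 ± 0.05, 0.49 ± 0.04 and 0.33 ± 0.11. The phosphatase Ptpn6, which dampens receptor signaling, was the gene that fell with all libraries, by 0.66 on the log2 scale (SE 0.09). Tyk2 (log2 fold change -0.02 ± 0.05) and Il4 (-0.55 ± 0.31, at a mean of 6.92 with zymosan and 10.4 without) did not pass. Il13 and the decoy receptor Il13ra2 had no reads in any library, and Socs2 was too low to test.

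Transcription factors of the program, a list that includes Klf4 and Pparg, moved in both directions in WT cells, with 7 of 16 higher and 9 lower with or without replicate 4. Over all tested genes 32.4% were higher and 36.8% lower, or 37.2% and 41.3% without replicate 4. The coactivator Ppargc1b (log2 fold change 2.37 ± 0.17), the histone demethylase Kdm6b (1.77 ± 0.07) and Egr2 (1.19 ± 0.21) rose most. Rxra, the partner receptor of PPARgamma, fell by 2.74 on the log2 scale (SE 0.07), and the macrophage transcription factor Maf fell by 2.43 (SE 0.08). Of the 15 tested C-type lectin receptors, with Mrc1, Clec10a and Mgl2 among them, 7 were higher and 0 lower, as with DESeq2 and at an unadjusted p under 0.05, and without replicate 4 of the untreated Mcu-/- group 13 of 14 were higher and 0 lower. Clec4e (Mincle), a receptor for microbial glycolipids, rose from a mean of 201 to 12665, Clec2d from 703 to 2825 and Clec4d from 2159 to 5837. Of 13 PPARgamma target and lipid uptake genes 7 were higher and 2 lower, led by the fatty acid binding proteins Fabp4 (log2 fold change 4.08 ± 0.33) and Fabp5 (1.89 ± 0.26) and the lipid droplet protein Plin2 (0.89 ± 0.31). Angptl4 (-2.96 ± 0.58) and the cholesterol exporter Abcg1 (-0.56 ± 0.05) were lower. Angptl4 had 18 to 31 reads per untreated library and 0 to 4 per zymosan-treated one.

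The main contrast of the study for Mcu, zymosan-treated Mcu-/- against zymosan-treated WT cells, gave differences in both directions. Such differences were common, with 31.8% of all tested genes higher and 30.3% lower. Il4ra, Clec10a and Mrc1 were lower in Mcu-/- cells, and Cd36, Klf4, Tgm2 and Stat6 were higher. Il4ra read 3688, 3645 and 3744 in the 3 Mcu-/- libraries and 8560 to 9121 in the 5 WT libraries. The gap was a log2 fold change of -1.27 ± 0.04 (edgeR FDR-adjusted p = 4.7e-13), and the Mcu-/- values were also under every untreated library of either genotype (6317 to 7069). Clec10a read 44.9, 41.9 and 60.5 against 136 to 157, with no overlap and a log2 fold change of -1.60 ± 0.26 (edgeR FDR-adjusted p = 5.12e-05).

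Mrc1 read 5664, 5762 and 5832 against 6858 to 8028 in WT, a smaller but complete separation with a log2 fold change of -0.35 ± 0.10 (edgeR FDR-adjusted p = 0.00783). Its related lectin Mgl2 rested on 4, 0 and 3 reads in the Mcu-/- libraries and 3 to 10 in WT, and the groups overlapped. The log2 fold change of Mgl2 was -1.16 ± 0.69 (edgeR FDR-adjusted p = 0.155), so no difference was detectable at this depth.

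Cd36 read 48583, 48446 and 49167 in Mcu-/- libraries, far above the 26979 to 28294 of WT. Its log2 fold change was 0.82 ± 0.15 (edgeR FDR-adjusted p = 0.000157). Klf4 read 471, 459 and 413 against 230 to 296 in WT, with no overlap and a log2 fold change of 0.77 ± 0.20 (edgeR FDR-adjusted p = 0.0031). Tgm2 read 10271, 10548 and 10630 against 7123 to 8277 (log2 fold change 0.45 ± 0.06, edgeR FDR-adjusted p = 8.77e-06), which put it above the untreated WT libraries as well. Stat6 read 4543, 4501 and 4356 against 3723 to 3816, a log2 fold change of 0.24 ± 0.07 (edgeR FDR-adjusted p = 0.00348), so the transcription factor and its receptor differed in opposite directions. Pparg read 492, 457.9 and 483 against 493 to 595, below every WT library, but its log2 fold change of -0.23 ± 0.22 did not pass (edgeR FDR-adjusted p = 0.383). It passed without replicate 4 of the untreated Mcu-/- group (-0.23 ± 0.06, adjusted p = 0.00134).

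Of the 9 tested genes 4 were higher and 3 lower, where 31.8% and 30.3% of all tested genes were, so calls in both directions do not set these genes apart. Without replicate 4 the counts were 4 and 4, against 36.4% and 33.7%. The median log2 fold change of the 9 genes was -0.23 and that of all tested genes 0.02. The exact permutation test gave its smallest possible p of 0.0179 for 7 of the 9 genes, 0.0357 for Pparg and 0.107 for Mgl2.

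**Figure D2:**
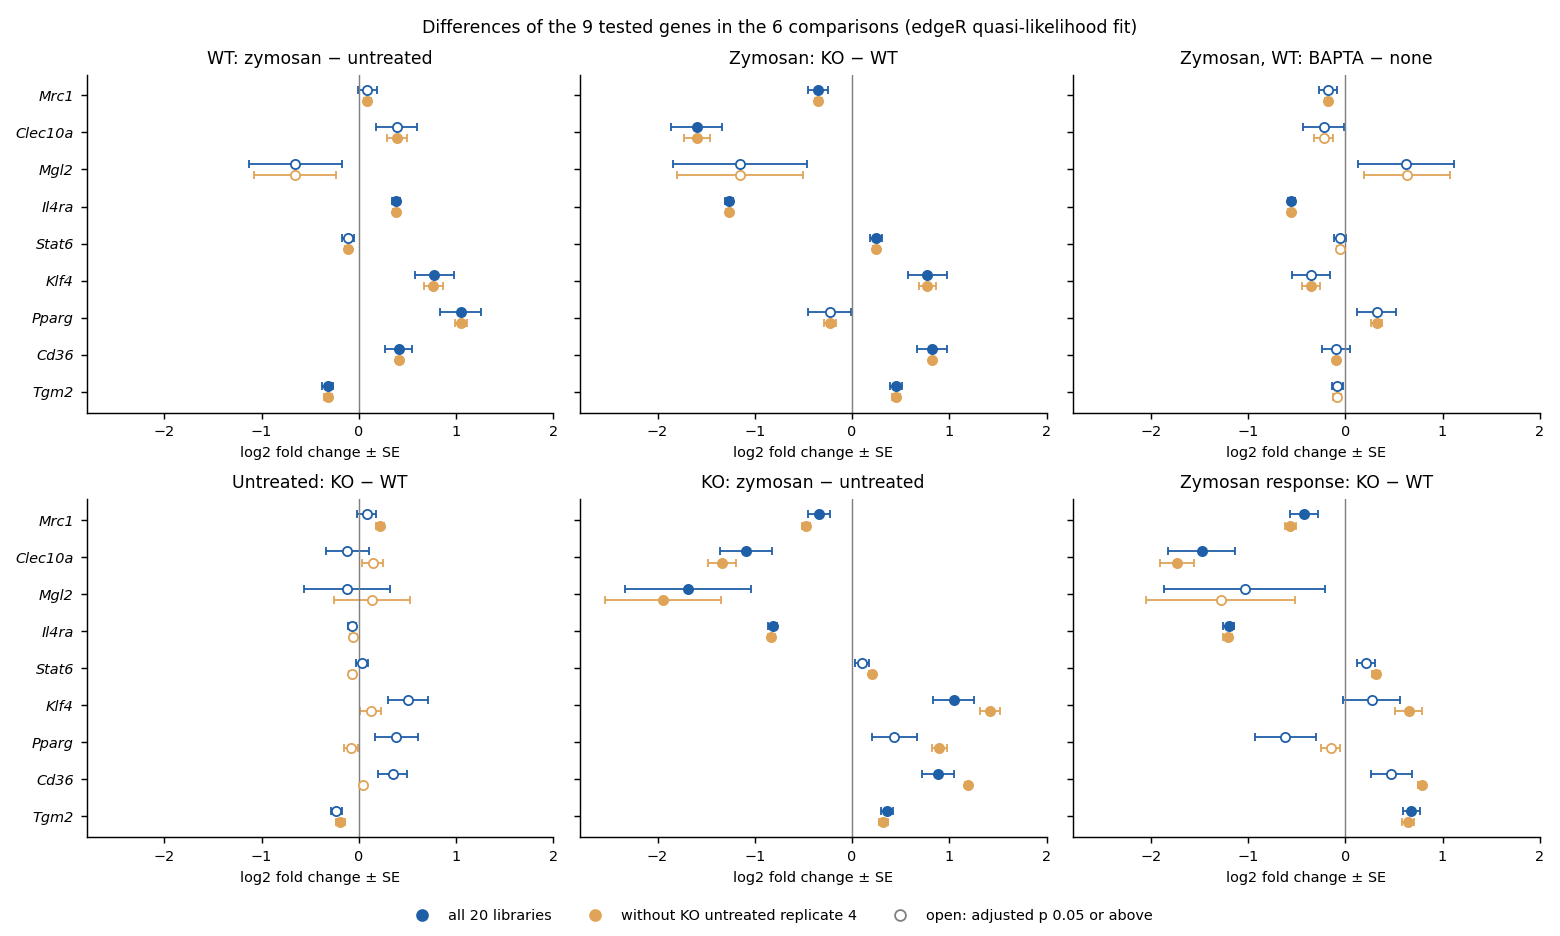
Log2 fold changes with their SE (horizontal axis) of the 9 tested genes (vertical axis) in the 6 comparisons, with all 20 libraries in blue and without replicate 4 of the untreated Mcu-/- group in orange, filled where the adjusted p is under 0.05. Il4ra is lower in zymosan-treated Mcu-/- and BAPTA-treated WT cells (-1.27 and -0.55), and the estimates that shift most without replicate 4 are those that use untreated Mcu-/- cells.

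Replicate 4 of the untreated Mcu-/- group, labelled as given no zymosan, lay apart from replicates 1 to 3 in 6 well-detected genes and on the side of the zymosan-treated Mcu-/- libraries, though outside the range of those 3 libraries in each. Cd36 was 41680 in that library and 20748, 21530 and 21693 in replicates 1 to 3. Klf4 was 369 in it and 190, 170 and 142 in the others, and Pparg was 649 against 275, 240 and 254. Clec10a was 41.7 against 113, 136 and 129, Mrc1 was 5115 against 8098, 7747 and 8175, and Stat6 was 5006 against 3907, 3811 and 3901. For these 6 genes replicate 4 was high where zymosan-treated Mcu-/- cells were high relative to replicates 1 to 3, and low where they were low.

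Il4ra and Tgm2 behaved otherwise. Il4ra was 6317 in replicate 4, just under the 6739, 6476 and 6472 of the others and far from the zymosan-treated Mcu-/- libraries. Tgm2 was 7488 in it, below the 9198, 8013 and 7970 of the others, while the zymosan-treated Mcu-/- libraries were above them. On the log2 scale, replicate 4 lay nearer to the mean of the zymosan-treated Mcu-/- libraries than to the mean of replicates 1 to 3 for 7 of the 9 genes, all but Il4ra and Tgm2. Over all 11707 tested genes this share was 46.2%. Against untreated WT cells, the log2 difference of replicate 4 was 1.01 for Cd36, -1.44 for Clec10a and -0.43 for Mrc1, beside 0.82, -1.61 and -0.35 for zymosan-treated Mcu-/- against zymosan-treated WT cells. For Il4ra the same values were -0.11 and -1.27. What sets replicate 4 apart, and its part in these differences, was not tested.

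**Figure D3:**
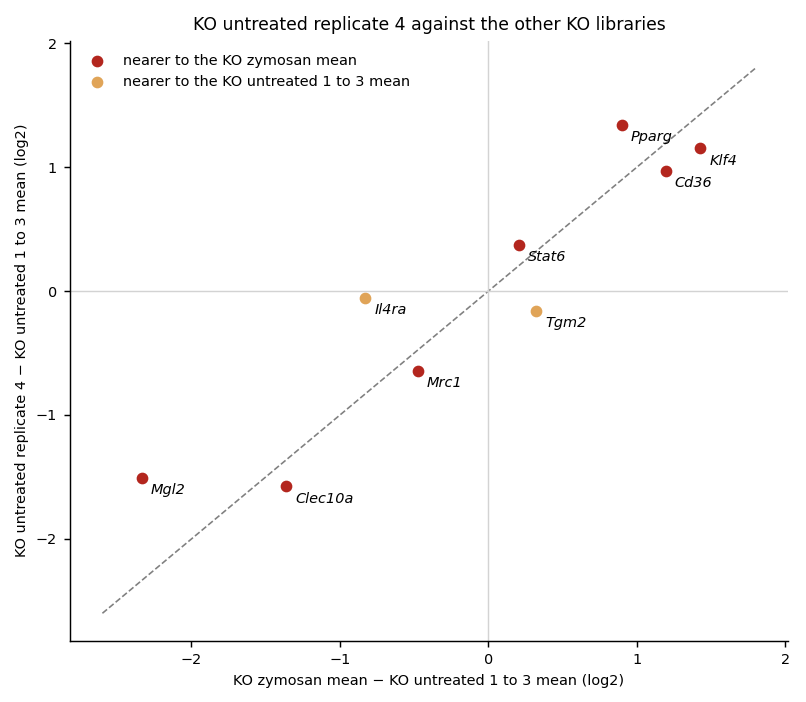
Log2 difference between the zymosan-treated Mcu-/- mean and the mean of untreated Mcu-/- replicates 1 to 3 (horizontal axis) against the log2 difference of untreated Mcu-/- replicate 4 from the same mean (vertical axis), 1 point for each of the 9 detected genes, with the dashed line marking equal values. On both axes Cd36, Klf4, Pparg and Stat6 are above 0 and Mrc1, Clec10a and Mgl2 below it, while replicate 4 is near 0 for Il4ra (-0.055 against -0.83) and of opposite sign for Tgm2 (-0.16 against 0.32).

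The untreated genotypes were compared to see which differences precede zymosan. With all libraries, 0 of the 9 tested genes passed with edgeR, where 0.128% of all tested genes were higher and 0.222% lower. At an unadjusted p under 0.05 there were 2 higher and 1 lower, and DESeq2 called 1, Tgm2, as lower. Without replicate 4, Mrc1 was higher in untreated Mcu-/- cells (8098, 7747 and 8175 against 6633 to 7090 in WT, log2 fold change 0.22 ± 0.04, edgeR FDR-adjusted p = 0.000202). Tgm2 was lower (9198, 8013 and 7970 against 9199 to 9977, log2 fold change -0.19 ± 0.04, adjusted p = 0.00767). These 2 calls stood against 1.53% of all tested genes higher and 1.83% lower. The other 7 tested genes did not pass, with log2 fold changes from -0.08 (Pparg) to 0.14 (Clec10a) without replicate 4.

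Zymosan within Mcu-/- cells lowered Il4ra, Clec10a, Mrc1 and Mgl2 and raised Klf4, Cd36 and Tgm2. The Mgl2 call (-1.69 ± 0.65) rests on 4, 0 and 3 reads with zymosan and 4 to 18 without, its groups overlapped, and it was lost without replicate 1 of the untreated group (adjusted p = 0.0763) or without either of 2 zymosan-treated libraries (0.116 and 0.0546). Il4ra had a log2 fold change of -0.82 ± 0.04 (edgeR FDR-adjusted p = 6.98e-12), and replicate 4 lay close to its own group here. The log2 fold change of Tgm2 was 0.36 ± 0.06 (edgeR FDR-adjusted p = 6.6e-05), and that of Cd36 was 0.88 ± 0.16, or 1.19 ± 0.03 without replicate 4. Klf4 changed by 1.04 ± 0.21 with all libraries and 1.42 ± 0.10 without replicate 4. For Clec10a (-1.09 ± 0.27) and Mrc1 (-0.34 ± 0.11), replicate 4 lay at or below the zymosan-treated libraries, so the groups overlapped, and neither passed when the 2 Mcu-/- groups were fitted alone (adjusted p = 0.0577 and 0.142). Of the 9 genes 3 were higher and 4 lower, where 34.3% and 39.4% of all tested genes were. Without replicate 4 the counts were 5 and 4 against 39.2% and 42.4%, with Pparg (0.90 ± 0.07) and Stat6 (0.21 ± 0.03) added as higher. Il4ra was the only gene of the 9 with an exact permutation p under 0.05 here, at the smallest possible value of 0.0286.

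Whether the response to zymosan differed between genotypes was tested as the difference of the 2 log2 fold changes, Mcu-/- minus WT. Il4ra rose in WT and fell in Mcu-/- cells, a difference of -1.20 ± 0.06 (edgeR FDR-adjusted p = 2.3e-10). Tgm2 did the reverse, with a difference of 0.68 ± 0.09 (edgeR FDR-adjusted p = 1.3e-05). The response of Clec10a was lower in Mcu-/- cells too (-1.48 ± 0.34, edgeR FDR-adjusted p = 0.00324), as was that of Mrc1 (-0.43 ± 0.14, adjusted p = 0.0283). The call of Mrc1 was lost when any of 7 other libraries was left out in turn, with adjusted p-values from 0.0501 to 0.0641. 1 gene of 9 was higher and 3 lower, against 15.2% and 20% of all tested genes. Without replicate 4 there were 4 higher and 3 lower against 31% and 29.3%, with Cd36 (0.78 ± 0.04), Klf4 (0.65 ± 0.14) and Stat6 (0.32 ± 0.04) added as higher.

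These differences depend on which untreated Mcu-/- libraries serve as the baseline. Against replicate 4 alone, for which there is no replicate and no test, the log2 response of Mcu-/- cells was 0.23 for Cd36, 0.21 for Clec10a, 0.17 for Mrc1 and 0.28 for Klf4. The WT responses on the same scale were 0.41, 0.39, 0.09 and 0.78, all of the same sign. For Il4ra the response against replicate 4 was -0.77 beside 0.38 in WT, and for Tgm2 it was 0.49 beside -0.32. In the scaled counts, the opposite responses of Il4ra and Tgm2 in the 2 genotypes were thus present against every untreated Mcu-/- library, and those of Clec10a and Mrc1 were not.

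BAPTA-AM was used to prevent calcium signals during zymosan, and among these genes it lowered Il4ra. Il4ra read 5822, 5809, 6350 and 6228 with BAPTA-AM and 8560 to 9121 without it. The log2 fold change was -0.55 ± 0.04 (edgeR FDR-adjusted p = 3.17e-08), and the BAPTA-AM libraries lay below every untreated WT library too (6522 to 7069). Pparg read 693, 729, 717 and 667 against 493 to 595, above every zymosan-treated WT library, but the log2 fold change of 0.32 ± 0.20 did not pass with all libraries (edgeR FDR-adjusted p = 0.346). Klf4 read 198, 219, 193 and 209 against 230 to 296, below every one (-0.35 ± 0.20, adjusted p = 0.288), and Cd36 read 25109, 26338, 25702 and 26140 against 26979 to 28294 (-0.09 ± 0.14).

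With all libraries, 0 of the 9 genes were higher and 1 lower, by DESeq2 as well as edgeR and at an unadjusted p under 0.05, where 6.43% of all tested genes were higher and 6.33% lower. Without replicate 4 of the untreated Mcu-/- group, Pparg was higher (edgeR FDR-adjusted p = 8.16e-06) and Il4ra, Mrc1, Klf4 and Cd36 were lower, which is 1 and 4 against 15.3% and 16.5%. The exact permutation test gave a p of 0.00794, its smallest, for Il4ra, Stat6, Pparg and Cd36. The BAPTA-AM and Mcu-/- comparisons share the zymosan-treated WT libraries as controls. Side by side, the log2 differences from those controls were -0.55 and -1.27 for Il4ra, -0.35 and 0.77 for Klf4, -0.09 and 0.82 for Cd36 and 0.32 and -0.23 for Pparg, with BAPTA-AM given first.

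In the receptor pathway around Il4ra, zymosan-treated Mcu-/- cells differed from WT in 9 of 15 tested genes, 4 higher and 5 lower. Over all tested genes 31.8% were higher and 30.3% lower, so the share called was near that of all genes. Without replicate 4 of the untreated Mcu-/- group there were 5 higher and 6 lower, against 36.4% and 33.7%. Ptpn1, the tyrosine phosphatase PTP1B, was lower (log2 fold change -1.24 ± 0.06), with 3827, 4091 and 4009 against 8994 to 9994. Jak3 (-0.92 ± 0.12), Socs3 (-0.52 ± 0.08) and Ptpn6 (-0.50 ± 0.10) were lower as well. Il13ra1 (0.46 ± 0.13), Tyk2 (0.14 ± 0.05) and Il4 (1.21 ± 0.32, at means of 15.9 and 6.92) were higher. Socs1 (-0.00 ± 0.06), Cish (0.12 ± 0.16), Jak2 (0.07 ± 0.04), Jak1 (0.02 ± 0.05), Il2rg (-0.09 ± 0.06) and Irs2 (0.60 ± 0.28) did not pass. In the fit with all libraries, the responses of Ptpn1 and Jak3 to zymosan had the signs of that of Il4ra, higher in WT and lower in Mcu-/- cells. The tested difference was -1.14 ± 0.08 for Ptpn1 and -0.76 ± 0.17 for Jak3. Jak3 was however 564 in replicate 4 and 934 to 997 in replicates 1 to 3, beside 632 to 661 in the zymosan-treated Mcu-/- libraries. Against replicate 4 alone Jak3 was thus higher with zymosan in Mcu-/- cells, as in WT, and lacked the pattern of Il4ra. Ptpn1 was 5170 in replicate 4 and 6185 to 6400 in replicates 1 to 3, all above its zymosan-treated Mcu-/- libraries.

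BAPTA-AM lowered 7 of the 15 pathway genes and raised 0, as with DESeq2 and at an unadjusted p under 0.05. Besides Il4ra these were Irs2 (log2 fold change -1.05 ± 0.28), Cish (-0.82 ± 0.15), Jak2 (-0.43 ± 0.04), Ptpn1 (-0.43 ± 0.05), Socs3 (-0.38 ± 0.08) and Il2rg (-0.17 ± 0.05). Over all tested genes 6.33% were lower and 6.43% higher. Without replicate 4 of the untreated Mcu-/- group 8 pathway genes were lower and 0 higher, against 16.5% and 15.3%. Between untreated genotypes 0 of the 15 passed with edgeR or DESeq2, with 4 at an unadjusted p under 0.05. Without replicate 4, 0 were higher and 1 lower in this comparison, against 1.53% and 1.83% of all tested genes.

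**Figure D4:**
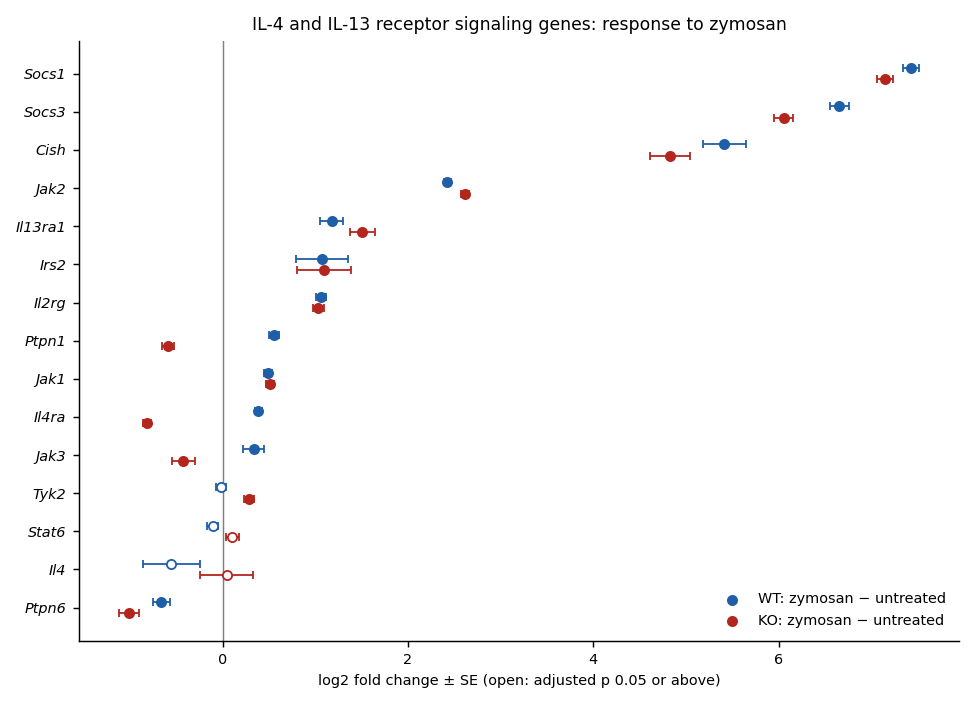
Log2 fold change with its SE (horizontal axis) of the 15 tested IL-4 and IL-13 receptor signaling genes (vertical axis) from untreated to zymosan-treated cells, in WT (blue) and Mcu-/- (red, all 4 untreated libraries), open where the adjusted p is 0.05 or above. Socs1, Socs3 and Cish rose in both genotypes, and Il4ra, Ptpn1 and Jak3 rose in WT and fell in Mcu-/- cells. The fall of Jak3 was absent against untreated Mcu-/- replicate 4 alone.

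The other lists put the members' differences in context for zymosan-treated Mcu-/- against WT cells. In this comparison 31.8% of all tested genes were higher and 30.3% lower. Of the 15 tested C-type lectin receptors, 4 were higher and 9 lower, and Mrc1 and Clec10a are among the latter. Clec4b1 (log2 fold change -2.03 ± 0.28), Clec4a2 (-1.95 ± 0.25) and Clec4n (Dectin-2, -1.81 ± 0.22), a receptor for fungal mannans, were the lowest. Clec4a2 was 1841, 1829 and 1854 in these libraries and 1897 in untreated replicate 4, against 5979 to 6436 in untreated replicates 1 to 3. Mrc2 (2.10 ± 0.67), Clec4d (1.02 ± 0.23) and Clec5a (0.83 ± 0.07) were the highest. Of these, Mrc2 rested on 8 to 21 reads per Mcu-/- library and 1 to 7 per WT library. Of 13 PPARgamma target and lipid uptake genes 8 were higher and 3 lower, and Cd36 was among the former with Fabp4 (2.52 ± 0.24), Angptl4 (2.32 ± 0.67) and the scavenger receptor Msr1 (1.72 ± 0.27). Angptl4 rested on 6 to 17 reads per zymosan-treated Mcu-/- library and 0 to 4 per WT library. In untreated replicate 4 Msr1 was 14230, Plin2 12192 and Fabp5 2122, against 4239 to 4482, 2931 to 3058 and 638 to 714 in replicates 1 to 3. Abcg1 (-0.82 ± 0.06), Scarb1 (-0.39 ± 0.06) and Acadl (-0.28 ± 0.08) were lower. Their medians over tested genes were -0.74 for the lectins and 0.70 for the PPARgamma targets, beside 0.02 for all genes.

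Of 16 tested transcription factors 6 were higher and 3 lower, against 31.8% and 30.3% of all tested genes. Klf2 (1.84 ± 0.21), Bhlhe41 (0.84 ± 0.24) and Klf4 were the highest and Cebpb (-1.28 ± 0.16), Ppard (-1.02 ± 0.07) and Kdm6b (-0.68 ± 0.07) the lowest. Without replicate 4 there were 8 higher and 5 lower, against 36.4% and 33.7%. That library had 898 for Klf2 and 4815 for Cebpb against 358 to 428 and 2474 to 2562 in replicates 1 to 3. Under BAPTA-AM 3 of the 16 were higher and 3 lower, or 4 and 7 without replicate 4. The shares of all tested genes were 6.43% and 6.33%, or 15.3% and 16.5% without replicate 4. Bhlhe41 (0.87 ± 0.23), Klf2 (0.76 ± 0.20) and Rxra (0.30 ± 0.08) were higher, and Egr2 (-0.70 ± 0.20), Kdm6b (-0.35 ± 0.07) and Maf (-0.35 ± 0.08) were lower. BAPTA-AM raised 0 of the tested lectins, lipid genes and other alternative activation markers and lowered 2, 2 and 3 of them, and none were raised with DESeq2 or at an unadjusted p under 0.05. Without replicate 4 of the untreated Mcu-/- group it raised 0, 2 and 1 and lowered 8, 6 and 7.

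Among 16 other tested markers of alternative activation, 7 were higher and 4 lower in zymosan-treated Mcu-/- than in zymosan-treated WT cells, or 7 and 6 of 15 without replicate 4 of the untreated Mcu-/- group. Over all tested genes 31.8% were higher and 30.3% lower, or 36.4% and 33.7% without that library. Arginase 1 (Arg1), which competes with nitric oxide synthase for arginine, was 305, 283 and 331 in the Mcu-/- libraries and 0 to 5.3 in WT, a log2 fold change of 6.90 ± 0.91. It was 308 in untreated Mcu-/- replicate 4 and 18.1 to 33.5 in replicates 1 to 3. Fibronectin (Fn1, 2.51 ± 0.54) and the folate receptor Folr2 (2.19 ± 0.32) were also higher, and Folr2 was 2580 in replicate 4 against 636 to 699. The chitinase-like gene Chil3 had no reads in the 3 zymosan-treated Mcu-/- libraries or in replicate 4 and was at 3.3 to 15.6 in the other libraries. The transglutaminase F13a1 (-1.46 ± 0.28) and Matk (-1.83 ± 0.54) were lower. Matk rested on 2 to 7 reads per zymosan-treated Mcu-/- library and 12 to 18 per zymosan-treated WT library. F13a1 was 273 in replicate 4 against 996 to 1098 in replicates 1 to 3. These genes were chosen after their values were seen, and other markers of the list differed from them: Il10 was 90.8 and Ch25h 178 in replicate 4, below the 152 to 161 and 430.2 to 506 of replicates 1 to 3, while the zymosan-treated Mcu-/- libraries were at 842 to 908 and 1166 to 1291.

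Zymosan in WT cells raised 5 of the 16 other markers and lowered 3, or 8 and 4 of 15 without replicate 4 of the untreated Mcu-/- group. Over all tested genes 32.4% were higher and 36.8% lower, or 37.2% and 41.3% without that library. The arginine transporter Slc7a2 rose from a mean of 10.5 to 1791, the interleukin-1 receptor antagonist Il1rn from 794 to 22274 and the chemokine Ccl22 from 0 to 1.76 in untreated libraries to 16 to 33 in treated ones. Slc7a2 in untreated replicate 4 was 38.4, against at most 13.9 in replicates 1 to 3 and far below the 2235 to 2322 of zymosan-treated Mcu-/- cells. Stab1 (log2 fold change -0.90 ± 0.11), Cd163 (-0.81 ± 0.13) and the adhesion gene Cdh1 (-2.94 ± 0.65), which is induced by IL-4, were lower. Cdh1 rested on 5 to 12 reads per untreated WT library and 0 to 3 per zymosan-treated one. BAPTA-AM lowered Cd163 (-1.09 ± 0.15), Ch25h (-0.60 ± 0.17) and Stab1 (-0.51 ± 0.11). Of the resistin-like genes and transglutaminases, Tgm2, F13a1 and Tgm1 were tested, and in zymosan-treated Mcu-/- cells the first was higher and the other two lower than in WT. Retnlb, like Retnla, had no reads.

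**Figure D5:**
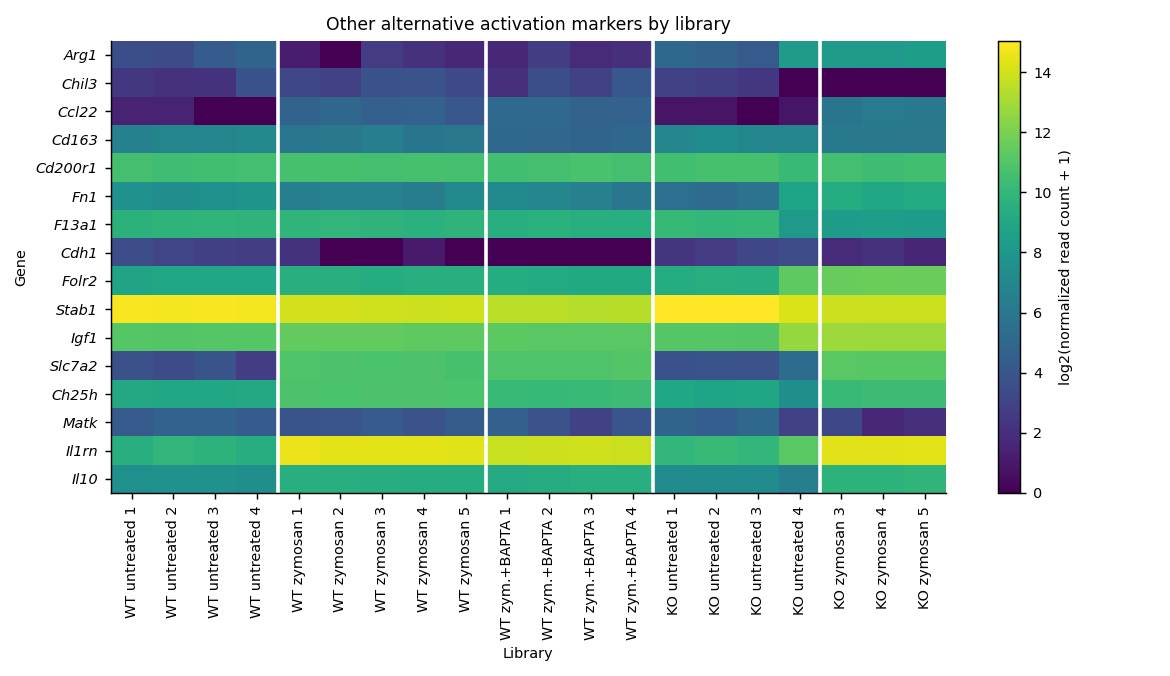
Log2(normalized read count + 1) as color for the 16 other tested alternative activation markers (rows) in the 20 libraries (columns, white lines between groups). Arg1 and Folr2 are high and Chil3 is 0 in untreated Mcu-/- replicate 4 and the 3 zymosan-treated Mcu-/- libraries, while Slc7a2 and Il1rn are high in the zymosan-treated libraries of both genotypes.

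For each tested gene the 2 genes with the most similar profile over the 20 libraries were found among 8343 genes with at least 10 CPM in their highest group. Cd36 went with Mpeg1 (Pearson r = 0.997) and Ctsb (0.996), Clec10a with Capza1 (0.985) and mt-Cytb (0.978), and Pparg with Fnip2 (0.978) and Tatdn2 (0.977). Il4ra went with Kmt2e (0.965) and Fosl2 (0.957), Klf4 with Shisa5 (0.964) and Xdh (0.964), and Stat6 with Micall1 (0.952) and 2610507B11Rik (0.952). Mrc1 went with Ceacam1 (0.916) and F13a1 (0.910), Tgm2 with Map3k5 (0.897) and Prkar2b (0.897), and Mgl2 with Pinx1 (0.874) and Tubg1 (0.823). The 20 points share 5 groups and 1 library that stands apart, so these values describe the profiles and carry no test.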

How the data were processed

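RNA was sequenced from 20 libraries of BMDMs in 5 groups. Per the study's methods, the authors trimmed reads with cutadapt, aligned them to mm10 with STAR and counted them per gene with HTSeq, and they deposited the raw counts as 1 table. Versions, the annotation and the strand setting are not given in the sources used here, so reads of overlapping or antisense genes cannot be told apart. Columns were matched to samples by name. The 3 zymosan-treated Mcu-/- columns carry numbers that differ from the labels, so they were matched to their group only.

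Counts were fitted with edgeR 4.0.16 (R 4.3.3) by TMM scaling, its default expression filter by group, a quasi-likelihood F test with 1 coefficient per group and no covariate, and Benjamini-Hochberg (FDR) adjustment over all 11707 genes tested, with calls at an adjusted p under 0.05. The SE of a log2 fold change is its absolute value divided by the square root of its F statistic. The fit was tested on simulated data before use. TMM factors were 0.838 to 0.915 in zymosan-treated and 1.15 to 1.24 in untreated libraries. Differences between zymosan-treated and untreated cells therefore depend on this scaling. Relative to total counts alone, the rises of Cd36 and Il4ra in WT cells were absent. So was that of Tgm2 in Mcu-/- cells against untreated replicates 1 to 3. Levels are counts divided by effective library size and multiplied by the mean library size of 20.6 M reads. Depths of 14.4 M to 23.95 M set the floor of 3 counts at 0.125 to 0.208 CPM, which covers counting error only. Single genes were also compared by an exact two-sided permutation test of mean log2(normalized count + 0.5) over every assignment of the libraries of 2 groups. Gene positions and exon lengths came from GENCODE M21 and promoters from RefSeq.

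The members, the gene lists and the tests were chosen with earlier results of these data known. Named genes beyond the 10 are all genes of the IL-4 and IL-13 receptor list, the 3 with the largest fold change called in each direction in each other list, and the 2 most similar profiles, except 1 gene that is not reported here. Genes followed in replicate 4 of the untreated Mcu-/- group were picked from these after their values were seen. Alternatives were DESeq2 1.42.0 size factors and its Wald test, a filter of 1 count, fits of only the groups compared, each library left out and the replicate number as a block. The numbers did not pair the samples. Same-numbered libraries of different groups had correlations of their deviations from -0.061 to 0.067 over 24 pairs.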

Additional observations from a re-analysis of the deposited data

Results flagged for a closer look

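Among 36 combinations of a gene and a group of 4 or 5 libraries, 4 held a library far from the others, where chance alone would mark about 1 in 20, and all 4 were replicate 4 of the untreated Mcu-/- group. Its normalized count was 5115 for Mrc1, 5006 for Stat6, 649 for Pparg and 41680 for Cd36. The response to zymosan differed between genotypes in the fit for 4 genes, by a log2 difference (Mcu-/- minus WT) of -0.43 for Mrc1, -1.48 for Clec10a, -1.20 for Il4ra and 0.68 for Tgm2. Against replicate 4 alone, the responses of Mrc1 and Clec10a in Mcu-/- cells had the sign of the WT response, and those of Il4ra and Tgm2 did not.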

How the results depend on the processing

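The number of the 9 genes called moved by over 1.5 times in these settings. With only the groups compared in the fit it was 8 in place of 5 for zymosan in WT cells, 5 in place of 1 for BAPTA-AM and 4 in place of 7 for zymosan in Mcu-/- cells. With DESeq2's Wald test it was 1 in place of 0 between untreated genotypes. Over the 20 fits that each left out 1 library it ranged from 5 to 8 for zymosan in WT cells, 7 to 8 between zymosan-treated genotypes, 1 to 5 for BAPTA-AM, 0 to 2 between untreated genotypes, 6 to 9 for zymosan in Mcu-/- cells and 3 to 7 for the difference of the responses, each maximum being without replicate 4 of the untreated Mcu-/- group. Without replicate 1 of that group Tgm2 passed between untreated genotypes. Between untreated genotypes, Clec10a (0.14), Mgl2 (0.13), Stat6 (-0.070) and Pparg (-0.080) turned sign without replicate 4, and Mgl2 (0.03) without replicate 1 of untreated WT, none of them past the threshold in either fit. Their values at the other end of that range were -0.27, -0.42, 0.072 and 0.53. The interaction of Mrc1 lost its call (adjusted p 0.0501 to 0.0641) without replicate 1 of untreated WT, replicate 2 of zymosan-treated WT, replicates 1, 2 or 3 of untreated Mcu-/-, or either of 2 zymosan-treated Mcu-/- libraries, and the Mgl2 call in Mcu-/- cells without replicate 1 of untreated Mcu-/- or either of 2 zymosan-treated ones. The exact tests gave 24 of 45 under 0.05, and 22 to 24 with a library left out. Leaving a library out also raises the smallest p the test can reach. Without replicate 4 of the untreated Mcu-/- group it was 0.1 for zymosan in Mcu-/- cells, so no gene could pass in that comparison. With the replicate block, 6, 1 and 0 genes were called for zymosan in WT cells, BAPTA-AM and the untreated genotypes, against 5, 1 and 0, with Mgl2 added as lower. Counts over all genes changed by over 1.5 times for BAPTA-AM (1494, with 3529 in the fit of its groups, 3712 without replicate 4 and 879 with the block), the untreated genotypes (41, with 112 by DESeq2, 5 in the fit of the groups, 391 without replicate 4, 22 with the block, and 26 and 22 without replicates 1 and 2 of untreated WT) and the difference of the responses (4122, with 7039 without replicate 4). Mgl2 and Retnla are limited by depth, with at most 18 and 0 reads per library.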
